A study of Homo sapiens with 12 samples.

Results

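The HOX genes of TC71 Ewing sarcoma cells were examined: the homeobox genes that lie in 4 clusters, HOXA on chromosome 7, HOXB on chromosome 17, HOXC on chromosome 12 and HOXD on chromosome 2. They were chosen by symbol, 38 in all. Of these, 32 had a row among the 21569 genes of the count table, and 29 passed the filter on low counts that left 17084 genes for testing. HOXA2, HOXA3, HOXA4, HOXA6, HOXB1 and HOXC5 were not analysed here, and HOXA5, HOXA7 and HOXA9 had too few reads to be tested and are described by their reads. TC71 is an established human Ewing sarcoma line, a bone and soft tissue tumour driven by a fusion of EWSR1 with an ETS gene. ID2, the gene under study, encodes an inhibitor of basic helix-loop-helix transcription factors. Polyadenylated RNA of 4 groups of 3 libraries each was sequenced: a line made from ID2 knockout clone 2 and labelled as rescue, knockout clone 2, knockout clone 1, and wild-type TC71. All were grown in the same serum-containing medium, and the means by which the gene was disrupted or put back is not given in the sources used here. Each knockout group is 1 clone, and the labels do not tell if its 3 libraries are separate cultures. The p-values therefore cover the spread between libraries alone, and that spread may be technical. The clones were compared with wild-type and with each other, and the rescue line with clone 2 and with wild-type, which asks whether HOX RNA differs where ID2 was targeted and whether it moves back.

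HOX proteins are transcription factors that give cells of the embryo their position along the body axis. The genes of a cluster are numbered by paralogue group: low numbers lie at the 3′ end and act towards the head, high numbers at the 5′ end act towards the tail, limbs and genital tract. HOX proteins bind DNA together with TALE homeodomain cofactors of the PBX, MEIS and PKNOX families. Polycomb complexes keep HOX clusters silent, trithorax and MLL complexes keep them active, and retinoic acid induces their 3′ genes. Ewing sarcomas are known for high levels of 5′ HOXD genes such as HOXD13.

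Basic helix-loop-helix proteins, some of which ID2 protein holds back, bind E-boxes, written CANNTG, of which CACGTG is 1 form. Both patterns read the same on either strand. Whether the proteins that ID2 holds back bind CACGTG was not tested, so CACGTG sites are not read as linked to ID2. Windows of 250 bases before a gene's start, from RefSeq (GRCh38.p14), were matched by symbol for 20 members, some with several starts, 27 windows in all. HOXC4 and HOXC5 have the same window, which is counted for each. CANNTG occurred in 20 of these 27 windows (74.1%) and in 61.8% of all 35116 windows of the table. CACGTG was in 5 of the 8 HOXD windows and 3 of the 16 HOXA windows, against 6.34% of all windows. The forms CAGCTG and CAGGTG (either strand) were in none of the 8 HOXD windows, against 13.99% and 17.49% of all windows. Among HOXA genes, CAGCTG was in windows of HOXA3, HOXA6 and HOXA7, and CAGGTG in that of HOXA7. The median observed over expected ratio of CG pairs was 0.897 in HOXD windows and 0.817 in HOXA windows, against 0.558 in all windows. CACGTG holds a CG pair, and whether composition accounts for its share was not tested. A match is a description of letters, not a binding site. The window of HOXA11 and 1 of the HOXA10 windows are shown because these genes, the HOXA members with the most reads, fell in clone 1, and that of HOXD13 because it had the most RNA; capitals mark each CANNTG, and HOXA10 has none. HOXA10 is at chr7:27174321-27174570 and HOXA11 at chr7:27185233-27185482, both on the minus strand, and HOXD13 is at chr2:176092471-176092720 on the plus strand. The HOXA11 window also holds exons of the antisense gene HOXA11-AS.
HOXA10 window: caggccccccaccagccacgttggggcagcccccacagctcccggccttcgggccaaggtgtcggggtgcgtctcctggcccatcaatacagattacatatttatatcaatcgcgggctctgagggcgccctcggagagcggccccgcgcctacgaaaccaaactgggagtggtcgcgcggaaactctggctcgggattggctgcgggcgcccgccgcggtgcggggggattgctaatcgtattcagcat
HOXA11 window: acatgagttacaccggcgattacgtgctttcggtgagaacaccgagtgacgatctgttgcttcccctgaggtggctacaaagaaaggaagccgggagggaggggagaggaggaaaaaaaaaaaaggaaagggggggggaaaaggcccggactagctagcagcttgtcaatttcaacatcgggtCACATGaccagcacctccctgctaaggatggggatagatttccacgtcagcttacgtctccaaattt
HOXD13 window: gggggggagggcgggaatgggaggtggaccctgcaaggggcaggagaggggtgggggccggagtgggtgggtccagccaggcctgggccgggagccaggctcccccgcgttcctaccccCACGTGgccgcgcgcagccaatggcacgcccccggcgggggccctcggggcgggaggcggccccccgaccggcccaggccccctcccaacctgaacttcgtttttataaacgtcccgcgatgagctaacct
The 5 HOXD sites with CACGTG, in capitals with 10 bases on each side, show how the flanks differ. All are on the plus strand, at chr2:176188605-176188630 for HOXD1, chr2:176157250-176157275 for HOXD3, chr2:176116662-176116687 for HOXD10, chr2:176107180-176107205 for HOXD11 and chr2:176092580-176092605 for HOXD13.
HOXD1 site: cggccagcgcCACGTGgccgcccccg
HOXD3 site: aagtcccgacCACGTGattggcgaaa
HOXD10 site: ggctctggagCACGTGacccgagagg
HOXD11 site: ttcatggcgtCACGTGacataattac
HOXD13 site: ttcctaccccCACGTGgccgcgcgca

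Libraries held 19420408 to 29748084 counts. Levels are given as CPM, the usual library-scaled count, here with TMM scaling, or as RPKM, which is CPM per kb of merged exon and the scale on which genes are compared with each other. The targeted gene was read first. ID2 had 42.0, 41.6 and 40.9 CPM in the libraries labelled rescue, 47.8, 50.8 and 54.1 in clone 2 and 17.9, 17.4 and 18.9 in clone 1, against 77.6, 78.6 and 77.4 CPM in wild-type. ID2 RNA was thus lower in the libraries labelled rescue than in clone 2 (log2 fold change -0.29, edgeR quasi-likelihood test with Benjamini-Hochberg adjusted p = 3.52e-06). This goes against that label only as far as the reads counted for ID2 show it. The construct is not given in the sources used here, so its RNA may not be among these reads. RNA cannot show whether the protein was lost or restored. All 10 Ewing sarcoma markers were present, with a summed level of 2836 to 2847 CPM in the libraries labelled rescue, 3113 to 3213 in clone 2, 3206 to 3294 in clone 1 and 3237 to 3263 CPM in wild-type. The summed level of 7 epithelial markers was 76.9 to 86.9 CPM in the libraries labelled rescue, 153 to 191 in clone 2, 884 to 951 in clone 1 and 115 to 122 CPM in wild-type, from the 5 that had a row in the table. That of 7 fibroblast markers was 41.2 to 49.0, 149 to 172, 352 to 378 and 167 to 176 CPM in the same order of groups, and that of 6 blood markers, from the 3 with a row, 3.44 to 4.07, 3.69 to 5.24, 17.6 to 19.3 and 2.01 to 2.65 CPM. Endothelial markers summed to at most 0.250 CPM and muscle markers to at most 3.06 CPM in every library. The summed levels of epithelial, fibroblast and blood markers were thus highest in clone 1, where the HOXA genes were lowest. Single markers could differ from the sums. Of 6 tested fibroblast markers, 1 was called lower in clone 1 than in wild-type, as were 30.7% of all tested genes. Of 2 tested blood markers, 1 was called higher in clone 2 than in clone 1, as were 30.3% of all tested genes. The part of these markers in the HOX results was not tested. In bulk RNA, fewer cells with a transcript and less of it per cell cannot be told apart.

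HOXD13, a 5′ gene needed for digits and the genital tract, had the highest level of all members per length, at 65.9 ± 0.642 RPKM in the libraries labelled rescue, 60.2 ± 0.916 in clone 2 and 43.5 ± 2.15 in clone 1, against 69.1 ± 1.55 RPKM in wild-type (mean ± SD, n = 3 each). Next in wild-type came HOXB7 at 24.6 ± 0.640, HOXB13 at 20.8 ± 0.934 and HOXD10 at 17.5 ± 0.0455 RPKM, whose ranges over the 3 libraries did not overlap. HOXD8, HOXD9, HOXC8, HOXB9 and HOXD11 followed at 6.12 to 8.998 RPKM in that order; the libraries of HOXD8 and HOXD9 overlapped, as did those of HOXB9 and HOXD11, and HOXC8 stood between these pairs without overlap. The order below HOXD13 depends on the length used. HOXD10 has 2692 merged exon bases but 1989 in its longest transcript, and HOXD11 has 2110 and 1533. HOXB13, HOXD9 and HOXC8 have the same length by both. By the longest transcript, HOXD10 would stand above HOXB13, and HOXD11 above HOXD9 and HOXC8. The 6 HOXA genes in the table were the lowest cluster, led by HOXA10 at 1.26 ± 0.0796 RPKM in wild-type. Summed over its measured members, the HOXA cluster had 8.21 ± 0.449 CPM in the libraries labelled rescue, 6.64 ± 0.719 in clone 2 and 0.361 ± 0.307 in clone 1, against 6.88 ± 0.181 CPM in wild-type. The HOXD sum was 267.4 ± 6.80, 256.7 ± 5.35 and 205.5 ± 2.39 CPM in those groups, against 271.3 ± 3.63 CPM in wild-type, with HOXD13 the largest contributor in every group. The HOXB sum was 168.6 ± 3.65, 180.6 ± 0.929 and 180.3 ± 4.23 CPM, against 165.1 ± 1.09 CPM in wild-type, and the HOXC sum 61.5 ± 0.640, 62.6 ± 2.29 and 55.7 ± 0.610 CPM, against 65.2 ± 2.85 CPM in wild-type. TC71 cells thus held RNA of all 4 clusters, and the HOXA sum was the one that nearly disappeared in a clone.

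**Figure D1:**
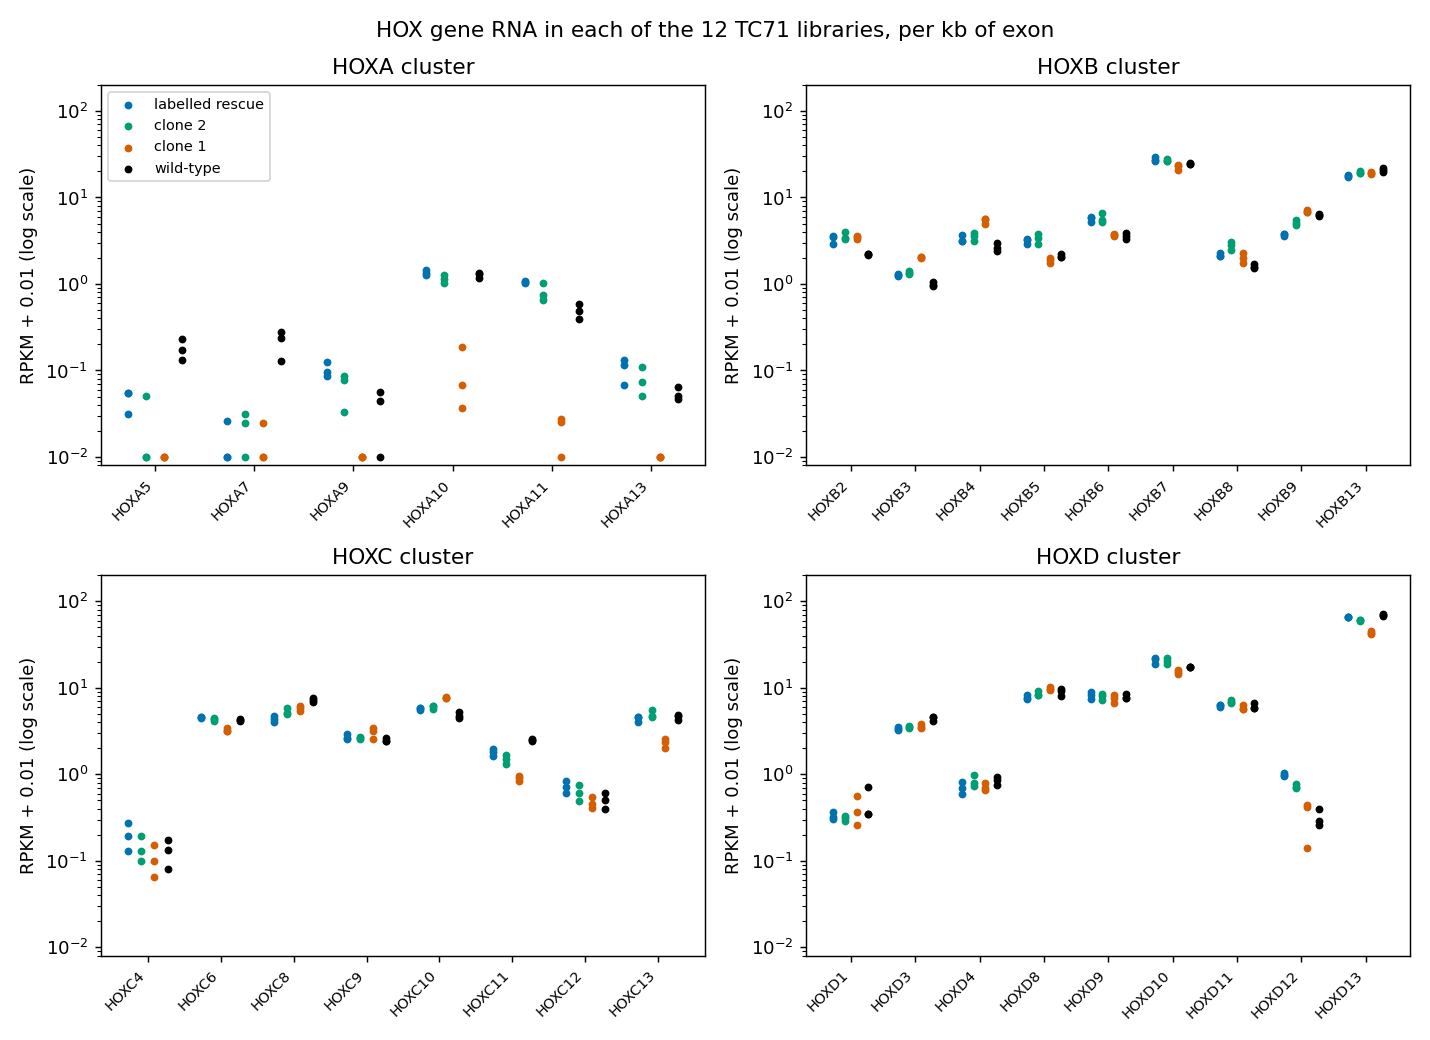
Level of each measured HOX gene in every library, in RPKM plus 0.01 on a log axis, with 1 panel per cluster and genes in order of paralogue number; each point is 1 library. HOXD13 lies above all others, and the clone 1 points of HOXA10, HOXA11 and HOXA13 lie far below those of the other groups.

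In clone 1 the HOXA genes were nearly silent, the 5′ genes HOXC11, HOXC13 and HOXD13 were lower, and the 3′ genes HOXB2, HOXB3 and HOXB4 were higher than in wild-type. Position did not set the direction throughout: HOXC10, a 5′ gene, was higher (log2 fold change 0.67) and HOXD3, a 3′ gene, lower (-0.29). HOXC12, HOXD11 and HOXD12 were not called. Of the 29 tested members, 12 were called lower (41.4%), against 30.7% of all 17084 tested genes, and 5 higher (17.2%), against 30.8% of all tested genes. Calls in either direction were made for 61.5% of all tested genes. A call is a Benjamini-Hochberg adjusted p under 0.05 in edgeR's quasi-likelihood test over all tested genes. By at least 2-fold, 5 members were lower, HOXA10, HOXA11, HOXA13, HOXC11 and HOXC13, and 2 were higher, HOXB3 and HOXB4; of all tested genes, 4.06% were lower and 9.61% higher by that much. The median log2 fold change was -0.13 over the members and 0.01 over all tested genes. In clone 2 more members were higher than lower: 11 were called higher (37.9%, against 31.5% of all tested genes) and 5 lower (17.2%, against 30.6%), with a median of 0.09 against 0.01 over all tested genes. Of all tested genes, 62.1% were called in either direction in clone 2. HOXD12 alone was called at least 2-fold higher in clone 2, where 10.4% of all tested genes were, and no member was called at least 2-fold lower (2.87% of all tested genes were). Without wild-type library 2, 8 members were called lower in clone 2, of which 7 are among the 29 and the other, HOXA7, was let in by the filter on the remaining libraries. Both clones were set against the same wild-type libraries, so their values are given side by side. These counts describe the members that passed the filter. A gene passed with 3 libraries at 0.399 CPM or more before TMM scaling. HOXA10, HOXA11 and HOXA13 passed on libraries outside clone 1, and HOXA13 on 2 libraries labelled rescue and 1 of clone 2. HOXD12 reached it in 3 libraries labelled rescue and 3 of clone 2, 2 of clone 1 and 1 of wild-type. The 2-fold counts rest in part on these members, so no share is read from them.

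HOXA10, which patterns the uterus and the lumbar region, had 4.70, 5.27 and 4.89 CPM in the libraries labelled rescue, 3.77, 4.20 and 4.72 in clone 2 and 0.09997, 0.213 and 0.659 in clone 1, against 4.82, 4.88 and 4.34 CPM in wild-type. Clone 1 stood clear of the other 9 libraries, with 24 reads over its 3 libraries against 344 in wild-type (log2 fold change -3.79, SE 0.25, adjusted p = 7.45e-17). Clone 2 and the libraries labelled rescue overlapped wild-type, and neither was called (-0.15 and 0.09 over wild-type).

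HOXA11, required for the forearm and the uterus, had 2.50, 2.36 and 2.41 CPM in the libraries labelled rescue, 1.71, 2.33 and 1.48 in clone 2 and 0, 0.0356 and 0.0412 in clone 1, against 0.881, 1.09 and 1.34 CPM in wild-type. All clone 1 libraries were below, and all clone 2 and rescue-labelled libraries above, those of wild-type. In clone 1 there were 2 reads against 83 in wild-type, a ratio of 0.0246 with an exact 95% interval of 0.00293 to 0.0917 that covers counting error only (adjusted p = 8.39e-11, edgeR). In clone 2 HOXA11 rose (log2 fold change 0.70, SE 0.22, adjusted p = 0.00664), but this call was lost without wild-type library 1 or clone 2 library 2 (log2 fold changes 0.54 and 0.51). In the libraries labelled rescue it was higher than in wild-type by 1.11 (adjusted p = 1.37e-05, edgeR).

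HOXA13, the limb and genital tract gene at the 5′ end, had 0.294 to 0.620 CPM in the libraries labelled rescue, 0.209 to 0.506 in clone 2 and 0 reads in clone 1, against 0.190 to 0.276 CPM in wild-type. With 17 reads in wild-type and a floor of 3 reads over the group, it was at least 5.55-fold lower in clone 1 (adjusted p = 1.38e-04, edgeR). Its higher level in the libraries labelled rescue than in wild-type, 1.05 on the log2 scale (adjusted p = 0.0385, edgeR), was not called without wild-type library 1, wild-type library 2, wild-type library 3, rescue-labelled library 2 or rescue-labelled library 3 (log2 fold changes 0.99, 0.96, 1.24, 0.83 and 0.97) or with no filter on low counts (1.05) or with DESeq2 (1.08). Among the untested genes, HOXA5, a gene of lung development, had 5 reads in the libraries labelled rescue, 2 in clone 2 and 0 in clone 1, against 21 in wild-type. This makes it at least 6.86-fold lower in clone 1, while the clone 2 ratio to wild-type was 0.101 (exact 95% interval 0.0114 to 0.412). HOXA7 had 1 read in the libraries labelled rescue, 2 in clone 2 and 1 in clone 1, against 38 in wild-type. Its ratios to wild-type were 0.0246 (0.000606 to 0.145), 0.0556 (0.00650 to 0.215) and 0.0269 (0.000663 to 0.159). HOXA9, known from myeloid leukaemia, had 22 reads in the libraries labelled rescue, 11 in clone 2 and 0 in clone 1, against 6 in wild-type. By the floor of 3 reads HOXA9 was at least 1.96-fold lower in clone 1, if the 6 wild-type reads are taken as exact. Of the wild-type libraries, 1 also had 0 reads. HOXA5 and HOXA7, nearer the 3′ end, were thus low in both clones and in the libraries labelled rescue, whereas HOXA9, HOXA10, HOXA11 and HOXA13 were low in clone 1 and not in clone 2. Antisense genes overlap 31.1% of the exon bases of HOXA11, 62.5% of HOXA7, 16.4% of HOXA10 and 13.9% of HOXA9, and neither the read counter nor its strand setting is given in the sources used here, so reads of overlapping genes may have been counted for them.

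The genes around the HOXA cluster (chr7:27100354-27200106 for the 10 members, GENCODE 29, hg38) were read next. Within 1 Mb, 8 other protein-coding genes were tested, of which 6 were called lower and 0 higher in clone 1 than in wild-type, against 30.7% and 30.8% of all tested genes. JAZF1, a zinc finger cofactor on the side of HOXA13, had 0.0678 ± 0.0164 CPM in clone 1 against 4.09 ± 0.502 CPM in wild-type (log2 fold change -5.79, SE 0.32, adjusted p = 2.74e-19). NFE2L3, a transcription factor on the other side, had 1.42 ± 0.226 CPM against 5.03 ± 0.324 CPM (log2 fold change -1.80, SE 0.16, adjusted p = 1.69e-12), and SNX10, a sorting nexin, 0.0882 ± 0.0829 CPM against 0.397 ± 0.0774 CPM (log2 fold change -2.22, SE 0.63, adjusted p = 0.00226). SKAP2, an adaptor protein gene and the nearest tested neighbour, had 0 reads in clone 1 against 34 in wild-type, at least 11.1-fold lower. SKAP2 passed the filter only on wild-type libraries, where it was high. It is 1 of the 6 called lower, so no share is read from that count. HNRNPA2B1 (-0.38) and CBX3 (-0.31), the abundant RNA-binding and chromatin protein genes, fell less, and HIBADH (0.02) and TAX1BP1 (-0.05), whose starts lie between HOXA13 and the start of JAZF1, were not called. Loss of RNA in clone 1 thus reached genes on both sides of the cluster and passed over others between them. In clone 2, JAZF1 (-0.06) and NFE2L3 (0.12) were not called and SNX10 rose by 1.81, whereas SKAP2 had 1 read, a ratio of 0.0311 to wild-type with an exact 95% interval of 0.000764 to 0.185. HNRNPA2B1 (-0.31), CBX3 (-0.23) and HIBADH (-0.23) also fell in clone 2. SKAP2 had 0 reads in the libraries labelled rescue. The median of the 794 tested genes of chromosome 7 was 0.00 in clone 1 and 0.04 in clone 2 over wild-type, on the log2 scale.

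**Figure D2:**
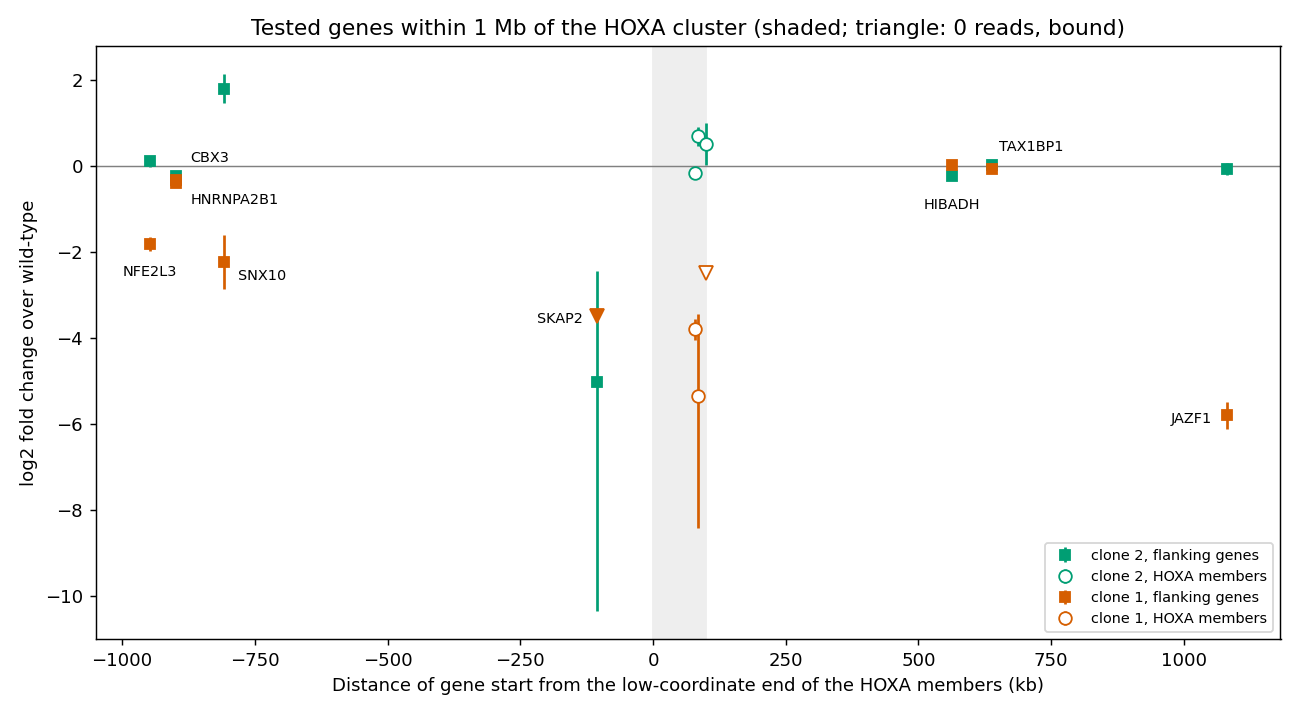
log2 fold change of clone 2 and clone 1 over wild-type for the tested protein-coding genes within 1 Mb of the HOXA cluster, against the distance of the gene's start from the low-coordinate end of the cluster in kb; the cluster is shaded, and open symbols in it are HOXA10, HOXA11 and HOXA13. Bars are SE, or exact 95% counting intervals where a clone had 1 to 3 reads; triangles are bounds for genes with 0 reads in clone 1. JAZF1 at -5.79, NFE2L3 at -1.80 and SNX10 at -2.22 in clone 1 lie outside the cluster, and HIBADH and TAX1BP1 lie near 0 in clone 1.

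The HOXB cluster differed between its 3′ and 5′ genes. HOXB2, a hindbrain gene, had 6.72, 8.33 and 8.22 CPM in the libraries labelled rescue, 7.61, 7.84 and 9.21 in clone 2 and 8.05, 7.72 and 8.36 in clone 1, against 5.16, 5.17 and 5.03 CPM in wild-type. All 9 libraries of the 3 derived groups were above wild-type, by 0.60 in the libraries labelled rescue, 0.68 in clone 2 and 0.65 in clone 1 on the log2 scale. HOXB3, also of the hindbrain, had 9.62, 9.22 and 9.44 CPM in the libraries labelled rescue, 9.84, 10.5 and 9.63 in clone 2 and 14.6, 15.3 and 15.3 in clone 1, against 7.72, 7.01 and 7.14 CPM in wild-type. Clone 1 was highest (log2 fold change 1.05, SE 0.08, adjusted p = 8.19e-15), and clone 2 (0.45) and the libraries labelled rescue (0.37) also rose without overlapping wild-type. HOXB4, known for expanding blood stem cells, had 11.6, 11.9 and 13.8 CPM in the libraries labelled rescue, 13.3, 11.7 and 14.6 in clone 2 and 18.6, 21.4 and 21.2 in clone 1, against 11.03, 9.05 and 9.72 CPM in wild-type. Its order was the same, with log2 fold changes over wild-type of 0.32 in the libraries labelled rescue, 0.41 in clone 2 and 1.04 in clone 1 (adjusted p = 3.58e-14 for clone 1, edgeR).

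From HOXB5 to HOXB8 the clones parted. HOXB5 had 6.57, 5.93 and 6.73 CPM in the libraries labelled rescue, 7.64, 6.88 and 5.97 in clone 2 and 4.10, 3.80 and 3.54 in clone 1, against 4.19, 4.12 and 4.52 CPM in wild-type. It rose in clone 2 (log2 fold change 0.68, SE 0.12, adjusted p = 2.56e-06) and in the libraries labelled rescue (0.58), and was below wild-type without overlap but not called in clone 1 (-0.18, adjusted p = 0.241, edgeR). HOXB6 had 15.6, 13.6 and 15.2 CPM in the libraries labelled rescue, 14.4, 17.4 and 13.6 in clone 2 and 9.20, 9.74 and 9.51 in clone 1, against 8.68, 9.29 and 10.1 CPM in wild-type. Clone 2 and the libraries labelled rescue were above wild-type by 0.68 and 0.66, and clone 1 overlapped wild-type (0.02, 95% interval -0.20 to 0.23). HOXB8, used to keep myeloid progenitors growing in culture, had 4.33, 4.61 and 4.32 CPM in the libraries labelled rescue, 5.10, 6.22 and 5.69 in clone 2 and 4.10, 3.52 and 4.65 in clone 1, against 3.23, 3.13 and 3.52 CPM in wild-type. It was highest in clone 2 (log2 fold change 0.76, SE 0.13, adjusted p = 2.28e-06), higher in the libraries labelled rescue than in wild-type (0.42), and not called in clone 1 (0.30, adjusted p = 0.0564, edgeR). Without clone 1 library 2 it was called there as well (0.42). HOXB7, the HOXB gene with the highest level per length, had 40.3, 45.1 and 41.9 CPM in the libraries labelled rescue, 40.3, 39.98 and 42.1 in clone 2 and 35.4, 31.8 and 36.5 in clone 1, against 36.9, 37.2 and 38.7 CPM in wild-type. The differences were small: higher by 0.17 in the libraries labelled rescue, not called in clone 2 (0.12, adjusted p = 0.0560, edgeR), and lower in clone 1 (-0.13, adjusted p = 0.0397, edgeR). The clone 1 call was lost without wild-type library 3 or clone 1 library 2 (log2 fold changes -0.12 and -0.06) or with upper quartile scaling (-0.12) or with DESeq2 (-0.13), and that of the libraries labelled rescue without rescue-labelled library 2 (log2 fold change 0.12). HOXB7 was called in clone 2 with upper quartile scaling (0.18), with a filter of 1 CPM (0.13), with the replicate block (0.12) or with only the groups compared (0.12).

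At the 5′ end of the cluster, HOXB9, a gene of the thoracic skeleton, had 9.21, 9.69 and 9.71 CPM in the libraries labelled rescue, 12.4, 13.97 and 13.1 in clone 2 and 17.5, 17.6 and 18.3 in clone 1, against 15.7, 16.02 and 16.5 CPM in wild-type. It was lowest in the libraries labelled rescue (log2 fold change -0.76, SE 0.07, adjusted p = 7.72e-12), lower in clone 2 as well (-0.30), and above wild-type without a call in clone 1 (0.15, adjusted p = 0.0539, edgeR); it was called there with upper quartile scaling (0.15) or with only the groups compared (0.15). HOXB13, known from the prostate, had 60.8, 63.7 and 59.7 CPM in the libraries labelled rescue, 69.3, 67.2 and 66.4 in clone 2 and 68.0, 65.6 and 67.3 in clone 1, against 72.4, 75.3 and 68.8 CPM in wild-type. It fell in the libraries labelled rescue (-0.23) and in clone 1 (-0.11, adjusted p = 0.0242, edgeR), and clone 2 overlapped wild-type (-0.09, adjusted p = 0.0594, edgeR). The clone 1 call was lost without wild-type library 2 or clone 1 library 2 (log2 fold changes -0.08 and -0.09). In clone 2 it was called without wild-type library 3, clone 1 library 1, clone 1 library 3, clone 2 library 1, rescue-labelled library 1, rescue-labelled library 2 or rescue-labelled library 3 (log2 fold changes -0.14, -0.10, -0.10, -0.12, -0.10, -0.10 and -0.10) or with no filter on low counts (-0.12) or with the replicate block (-0.09). HOXB3 and HOXB6 share 433 exon bases on the same strand, and the antisense gene HOXB-AS3 overlaps 16.3% of the HOXB6 exons.

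**Figure D3:**
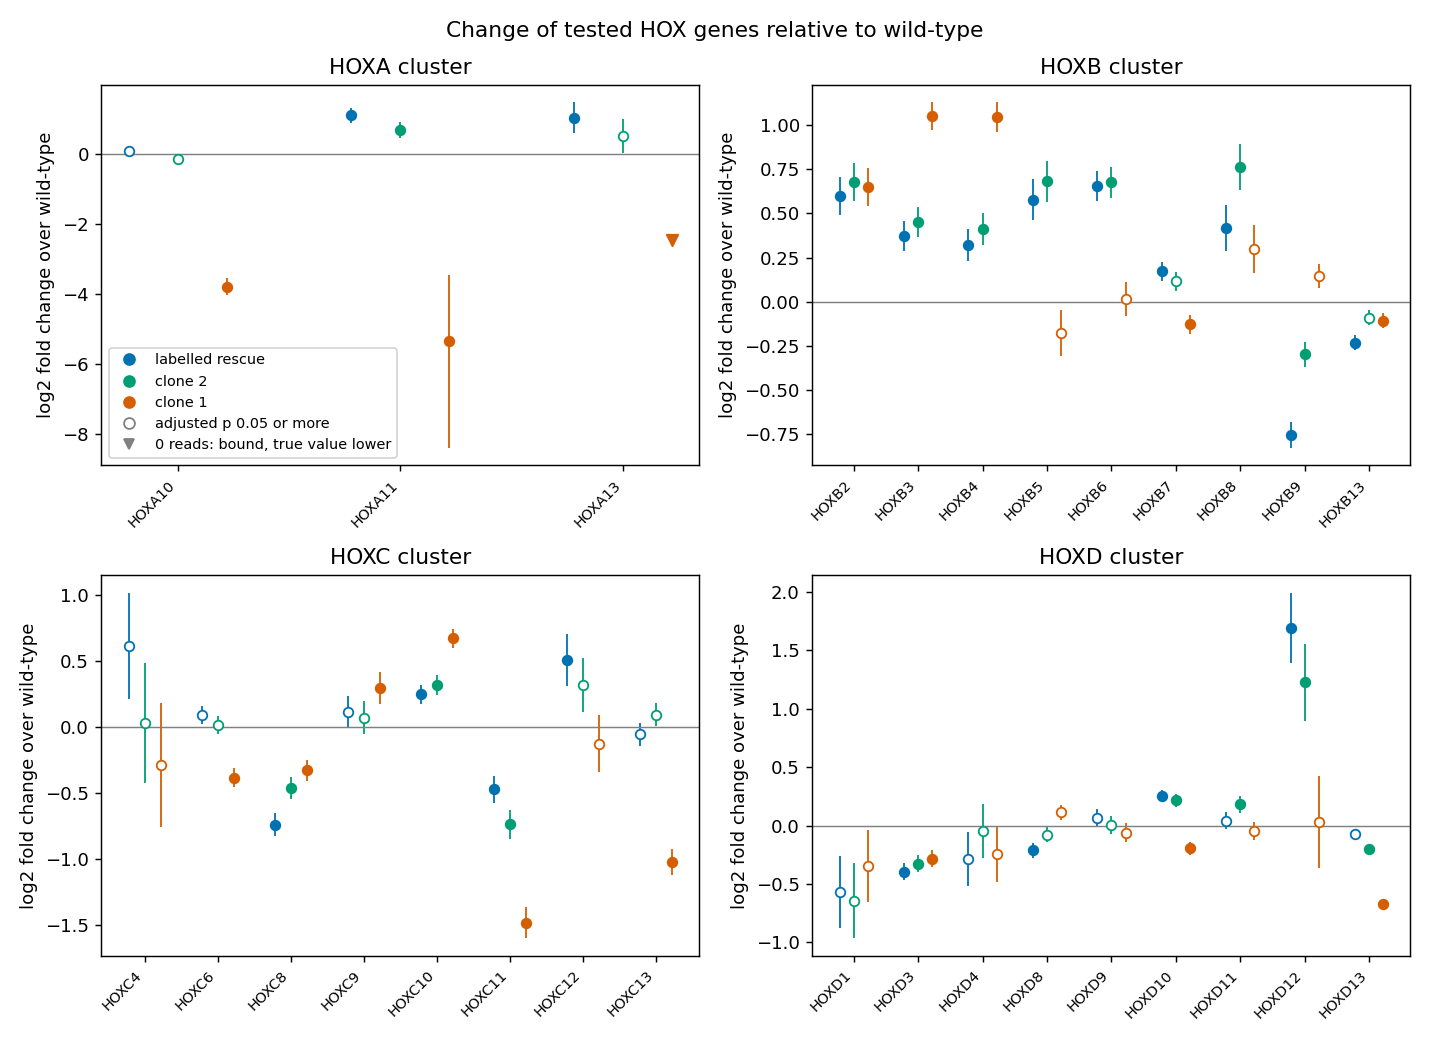
log2 fold change over wild-type of the 29 tested HOX genes in the libraries labelled rescue, clone 2 and clone 1, with 1 panel per cluster and a separate y scale in each. Filled points are calls, open points are not called, and bars are SE, except for HOXA11 in clone 1 (exact 95% counting interval) and HOXA13 in clone 1 (triangle, bound from 0 reads). HOXB2, HOXB3 and HOXB4 lie above 0 in all 3 groups, and HOXC11 and HOXD3 lie below 0 in all 3.

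In the HOXC cluster, neighbours moved in opposite directions. HOXC13, the gene of hair and nails, had 9.84, 11.2 and 11.05 CPM in the libraries labelled rescue, 11.03, 11.4 and 13.2 in clone 2 and 6.10, 4.84 and 5.64 in clone 1, against 11.4, 10.2 and 11.6 CPM in wild-type. Clone 1 was below all other libraries (log2 fold change -1.02, SE 0.10, adjusted p = 1.30e-11), and clone 2 (0.09) and the libraries labelled rescue (-0.05) were not called. HOXC11 had 6.35, 5.89 and 5.31 CPM in the libraries labelled rescue, 5.38, 4.91 and 4.21 in clone 2 and 2.90, 3.09 and 2.72 in clone 1, against 7.93, 8.25 and 8.20 CPM in wild-type. It fell in all 3 groups, by 1.48 in clone 1 (adjusted p = 5.13e-14, edgeR), with log2 fold changes of -0.74 in clone 2 and -0.47 in the libraries labelled rescue, without overlap with wild-type. HOXC10, a lumbar gene, had 13.6, 13.6 and 12.8 CPM in the libraries labelled rescue, 14.2, 13.3 and 14.4 in clone 2 and 18.2, 17.8 and 17.7 in clone 1, against 10.9, 10.4 and 12.2 CPM in wild-type. It rose in all 3 groups, most in clone 1 (log2 fold change 0.67, SE 0.07, adjusted p = 1.33e-10), with 0.32 in clone 2 and 0.25 in the libraries labelled rescue. HOXC12, between HOXC11 and HOXC13, had 2.75, 2.32 and 1.99 CPM in the libraries labelled rescue, 2.48, 1.62 and 1.99 in clone 2 and 1.5, 1.32 and 1.77 in clone 1, against 2.01, 1.28 and 1.65 CPM in wild-type. Its call in the libraries labelled rescue (0.50, adjusted p = 0.0240, edgeR), where the groups overlapped, was lost without wild-type library 2, wild-type library 3 or rescue-labelled library 1 (log2 fold changes 0.38, 0.50 and 0.37) or with DESeq2 (0.50).

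HOXC9, which sets thoracic motor neurons apart, had 4.85, 4.38 and 4.32 CPM in the libraries labelled rescue, 4.33, 4.50 and 4.35 in clone 2 and 4.30, 5.26 and 5.68 in clone 1, against 4.45, 4.08 and 4.03 CPM in wild-type. Only clone 1 was called (0.29, adjusted p = 0.0349, edgeR), with overlap, and the call was lost without wild-type library 2, wild-type library 3, clone 1 library 2 or clone 1 library 3 (log2 fold changes 0.28, 0.25, 0.28 and 0.20) or with no filter on low counts (0.27) or with DESeq2 (0.28). HOXC8, of the brachial region, had 7.49, 8.25 and 8.95 CPM in the libraries labelled rescue, 9.53, 9.36 and 10.97 in clone 2 and 11.7, 10.95 and 10.2 in clone 1, against 13.8, 13.0 and 14.3 CPM in wild-type. It fell in all 3 groups without overlap with wild-type: -0.74 in the libraries labelled rescue (adjusted p = 7.09e-10, edgeR), -0.46 in clone 2 and -0.33 in clone 1. HOXC6 had 15.7, 16.04 and 16.4 CPM in the libraries labelled rescue, 14.6, 15.3 and 15.7 in clone 2 and 11.1, 11.3 and 12.1 in clone 1, against 15.3, 14.6 and 15.1 CPM in wild-type. It was lower in clone 1 than in every other library (log2 fold change -0.38, SE 0.07, adjusted p = 1.18e-05) and was not called in clone 2 (0.01) or in the libraries labelled rescue (0.09). HOXC4, at the 3′ end, was near the limit of counting, with 0.330 to 0.726 CPM in the libraries labelled rescue, 0.244 to 0.506 in clone 2 and 0.150 to 0.391 in clone 1, against 0.190 to 0.448 CPM in wild-type, and it was not called in any comparison. It shares 484 exon bases with HOXC6 on the same strand.

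In the HOXD cluster the change was largest at the 5′ end. HOXD13 had 146, 148 and 148 CPM in the libraries labelled rescue, 135, 137 and 133 in clone 2 and 102, 92.7 and 97.1 in clone 1, against 152, 159 and 154 CPM in wild-type. Clone 1 was lowest (log2 fold change -0.67, SE 0.04, adjusted p = 1.90e-19), clone 2 also fell (log2 fold change -0.20, SE 0.04, adjusted p = 6.56e-06), and the libraries labelled rescue were not called against wild-type (-0.07, adjusted p = 0.0906, edgeR). HOXD12, its neighbour, had 1.39, 1.32 and 1.26 CPM in the libraries labelled rescue, 0.942, 0.911 and 1.02 in clone 2 and 0.550, 0.178 and 0.576 in clone 1, against 0.336, 0.521 and 0.379 CPM in wild-type. It rose in clone 2 (log2 fold change 1.23, SE 0.33, adjusted p = 0.00139) and in the libraries labelled rescue (log2 fold change 1.69, SE 0.30, adjusted p = 6.45e-06), and clone 1 overlapped wild-type. HOXD11, which acts with HOXA11 in the forearm, had 13.4, 12.8 and 13.5 CPM in the libraries labelled rescue, 14.4, 14.2 and 15.1 in clone 2 and 12.1, 11.9 and 13.3 in clone 1, against 12.5, 13.98 and 12.3 CPM in wild-type. It was called in clone 2 alone (0.18, adjusted p = 0.0322, edgeR), and the call was lost without wild-type library 1, wild-type library 3, clone 1 library 1, clone 2 library 1, clone 2 library 2, clone 2 library 3, rescue-labelled library 1 or rescue-labelled library 3 (log2 fold changes 0.15, 0.13, 0.17, 0.18, 0.19, 0.15, 0.17 and 0.17) or with no filter on low counts (0.15) or with DESeq2 (0.17).

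HOXD10, a gene of lumbar motor neurons, had 59.2, 50.4 and 58.1 CPM in the libraries labelled rescue, 54.9, 58.8 and 50.3 in clone 2 and 38.6, 42.9 and 41.1 in clone 1, against 47.1, 47.1 and 46.8 CPM in wild-type. It fell in clone 1 (-0.20, adjusted p = 0.00240, edgeR) and rose in clone 2 (0.22) and in the libraries labelled rescue (0.25), and none of these groups overlapped wild-type. HOXD8 had 20.3, 19.7 and 21.6 CPM in the libraries labelled rescue, 21.6, 21.9 and 24.2 in clone 2 and 25.4, 24.8 and 26.8 in clone 1, against 25.3, 21.2 and 24.4 CPM in wild-type. It was called lower in the libraries labelled rescue (-0.21, adjusted p = 0.00499, edgeR), with overlap, and this was lost without wild-type library 1 (log2 fold change -0.16); in clone 2 (-0.08) it was called without wild-type library 2 (log2 fold change -0.15). HOXD3 had 12.4, 11.5 and 11.9 CPM in the libraries labelled rescue, 12.5, 12.04 and 12.9 in clone 2 and 12.2, 13.7 and 12.5 in clone 1, against 14.5, 16.1 and 16.3 CPM in wild-type. It was lower in all 9 derived libraries than in wild-type, with log2 fold changes of -0.40 in the libraries labelled rescue, -0.33 in clone 2 and -0.29 in clone 1 (adjusted p = 8.33e-04 for clone 1, edgeR). HOXD9 at 12.5 to 16.8 CPM, HOXD4 at 0.852 to 1.42 CPM and HOXD1 at 0.498 to 1.38 CPM over all 12 libraries were not called in any comparison. HOXD1 was called lower in clone 2 without wild-type library 1 or wild-type library 2 (log2 fold changes -0.84 and -0.81), and in the libraries labelled rescue without wild-type library 1 (log2 fold change -0.76). HOXD10 and HOXD11 share 452 exon bases, and an unnamed read-through gene covers 80.5% of the HOXD4 exons and 62.2% of those of HOXD3, so counts of these genes are uncertain.

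The clones were then compared with each other, which tests the difference between them directly. Of the 29 tested members, 14 were called higher in clone 2 than in clone 1 (48.3%, against 30.3% of all tested genes) and 5 lower (17.2%, against 31.9%), where 62.2% of all tested genes were called in either direction. By at least 2-fold, 5 were higher, where 7.29% of all tested genes were, namely HOXA10 (3.64), HOXA11, HOXA13, HOXC13 (1.11) and HOXD12 (1.19), and 0 lower (6.64% of all tested genes were). HOXA13 passed the filter only on libraries of clone 2 and those labelled rescue, so no share is read from these counts. HOXA11 had 127 reads in clone 2 against 2 in clone 1, a ratio of 65.7 (exact 95% interval 17.8 to 548), and HOXA13 was at least 7.93-fold higher. HOXB5 (0.86), HOXB6 (0.66), HOXC11 (0.74), HOXD13 (0.47) and HOXD10 (0.41) were also higher in clone 2. So were HOXB8 (0.47), HOXC6 (0.40), HOXB7 (0.24) and HOXD11 (0.23), of which HOXD11 was not called without clone 1 library 2 (log2 fold change 0.18). HOXB4 (-0.63), HOXB3 (-0.60), HOXB9 (-0.44), HOXC10 (-0.35) and HOXD8 (-0.19) were lower in clone 2. The HOXD12 call was lost without clone 1 library 2 (log2 fold change 0.75) and that of HOXD8 without clone 1 library 3 or clone 2 library 1 (log2 fold changes -0.16 and -0.16) or with upper quartile scaling (-0.13). HOXB2 did not differ beyond the spread (0.03, 95% interval -0.20 to 0.26), nor did HOXD3 (-0.04, -0.22 to 0.14) or HOXB13 (0.02, -0.08 to 0.11).

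Few HOX genes differed between the libraries labelled rescue and clone 2. Of the 29, 1 was called higher (3.45%, against 19.3% of all tested genes) and 4 lower (13.8%, against 19.9%), and none by 2-fold (0.480% of all tested genes were called at least 2-fold higher and 4.47% lower); the median was -0.02 against -0.00 over all tested genes. In either direction, 39.2% of all tested genes were called. HOXD13 was higher (log2 fold change 0.13, SE 0.04, adjusted p = 0.00316), which brought it nearer to wild-type. The median over the 1140 tested genes of chromosome 2 was -0.10 in this comparison, and relative to it HOXD13 was higher by 0.23. HOXB9 was lower (log2 fold change -0.46, SE 0.08, adjusted p = 4.79e-06), as were HOXB8 (-0.35), HOXC8 (-0.27) and HOXB13 (-0.14). For HOXB9, HOXC8 and HOXB13 this was further from wild-type, and for HOXB8 nearer to it. The count of lower members was 2 without clone 2 library 3 or rescue-labelled library 3 and 1 without rescue-labelled library 1. The count of higher members was 2 without clone 2 library 1, clone 2 library 2 or rescue-labelled library 3. The HOXB8 call was lost without clone 2 library 2, clone 2 library 3, rescue-labelled library 1 or rescue-labelled library 3 (log2 fold changes -0.27, -0.32, -0.32 and -0.32) or with DESeq2 (-0.35), that of HOXC8 without clone 2 library 3 or rescue-labelled library 1 (log2 fold changes -0.19 and -0.19) and that of HOXB13 without clone 2 library 1, rescue-labelled library 1 or rescue-labelled library 3 (log2 fold changes -0.11, -0.12 and -0.11). HOXA11 (0.41, adjusted p = 0.0829) and HOXC11 (0.27, adjusted p = 0.0616) were not called in edgeR. HOXA11 was called without clone 2 library 2 (log2 fold change 0.60) and HOXC11 without clone 2 library 1 or rescue-labelled library 3 (log2 fold changes 0.38 and 0.34) or with no filter on low counts (0.29). Against wild-type, 13 members were higher in the libraries labelled rescue (44.8%, against 28.5% of all tested genes) and 6 lower (20.7%, against 29.9%), where 58.4% of all tested genes were called in either direction. By at least 2-fold, HOXD12, HOXA11 and HOXA13 were higher and none lower; of all tested genes, 6.78% were higher and 3.97% lower by that much, and HOXA13 passed the filter through clone 2 and the libraries labelled rescue. The members' median was 0.11 against 0.00 over all tested genes.

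Antisense and intergenic RNAs of the clusters were listed as 18 genes, of which 11 were in the table and 9 were tested. In clone 1, 1 was higher and 4 were lower than in wild-type; in clone 2, 3 were higher and 1 was lower; between the libraries labelled rescue and clone 2 none was called. Of all tested genes, 30.8% were higher and 30.7% lower in clone 1, 31.5% and 30.6% in clone 2, and 19.3% and 19.9% in the libraries labelled rescue over clone 2. HOXA11-AS, transcribed against HOXA11, had 0.975 ± 0.385 CPM in the libraries labelled rescue, 0.963 ± 0.285 in clone 2 and 0 reads in clone 1, against 0.106 ± 0.0286 CPM in wild-type. It was thus higher in clone 2 (3.05) and in the libraries labelled rescue (3.11) than in wild-type, as HOXA11 was. HOXA11-AS passed the filter only on libraries of clone 2 and those labelled rescue, where it was high. Its calls are therefore not read as support, and it is 1 of the 3 called higher in clone 2. HOXB-AS3, opposite HOXB5 and HOXB6, had 8.63 ± 0.354 CPM in clone 2 against 4.46 ± 0.299 CPM in wild-type (0.94). HOTAIR, a long RNA from between HOXC11 and HOXC12, fell in clone 1 to 1.16 ± 0.134 CPM, against 1.94 ± 0.409 CPM in wild-type (-0.75). HAGLR, opposite HOXD1 and HOXD3, fell in clone 2 (-0.23) and in clone 1 (-0.42). HOXC13-AS fell in clone 1 (-1.06), as did HOXC13. HOXA11-AS and HOXC13-AS were picked out after their values were seen. Without the strand setting, reads of a gene and of its antisense partner cannot be told apart where their exons overlap.

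All 9 listed TALE cofactors, the DNA-binding partners of HOX proteins, were tested. In clone 1, 2 were higher and 5 lower than in wild-type (median -0.21); in clone 2, 0 were higher and 4 lower (median -0.01); over all tested genes the medians were 0.01 in both, and 30.8% were higher and 30.7% lower in clone 1, and 31.5% and 30.6% in clone 2. PBX2 had 107, 105 and 111 CPM in the libraries labelled rescue, 106, 109 and 101 in clone 2 and 104, 103 and 106 in clone 1, against 136, 143 and 137 CPM in wild-type. All 9 derived libraries were below wild-type, with log2 fold changes of -0.39 in clone 2 and -0.41 in clone 1. PBX3 had 11.4, 10.2 and 11.8 CPM in the libraries labelled rescue, 7.92, 8.20 and 7.82 in clone 2 and 11.05, 10.7 and 10.9 in clone 1, against 11.9, 13.3 and 12.6 CPM in wild-type. It was lowest in clone 2 (-0.66), and its smaller change in clone 1 (-0.21) was not called without wild-type library 2 or clone 1 library 2 (log2 fold changes -0.18 and -0.19) or with DESeq2 (-0.22). PKNOX2 had 6.61, 6.16 and 6.27 CPM in the libraries labelled rescue, 9.98, 9.36 and 9.86 in clone 2 and 4.95, 5.80 and 5.23 in clone 1, against 13.7, 14.4 and 13.4 CPM in wild-type. It fell in both clones, by 0.50 in clone 2 and 1.36 in clone 1, and was lower again in the libraries labelled rescue than in clone 2 (-0.62). MEIS2 had 34.8, 37.1 and 37.1 CPM in the libraries labelled rescue, 30.7, 30.5 and 29.4 in clone 2 and 27.8, 26.1 and 23.9 in clone 1, against 33.9, 33.6 and 34.3 CPM in wild-type. It was lower in clone 1 (-0.39) and clone 2 (-0.17) and higher in the libraries labelled rescue than in clone 2 (0.27); its clone 2 call was lost with upper quartile scaling (-0.10). MEIS3 had 0.367, 0.155 and 0.268 CPM in the libraries labelled rescue, 0.663, 0.759 and 0.648 in clone 2 and 2.10, 1.46 and 1.73 in clone 1, against 0.629, 0.284 and 0.552 CPM in wild-type. It rose in clone 1 (1.79) and was lower in the libraries labelled rescue than in clone 2 (-1.36). MEIS1, the main partner of HOXA9 in leukaemia, was not called in either clone (0.06 in clone 2 and -0.10 in clone 1). PKNOX1 was higher in clone 1 by 0.16, a call lost without wild-type library 1 or clone 1 library 3 (log2 fold changes 0.12 and 0.10). PBX4 was not called in either clone and was higher in the libraries labelled rescue than in clone 2 (0.54), which was lost without clone 2 library 3, rescue-labelled library 1 or rescue-labelled library 2 (log2 fold changes 0.38, 0.54 and 0.54) or with DESeq2 (0.56). Between the libraries labelled rescue and clone 2, 4 cofactors were higher and 2 lower, against 19.3% and 19.9% of all tested genes.

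**Figure D4:**
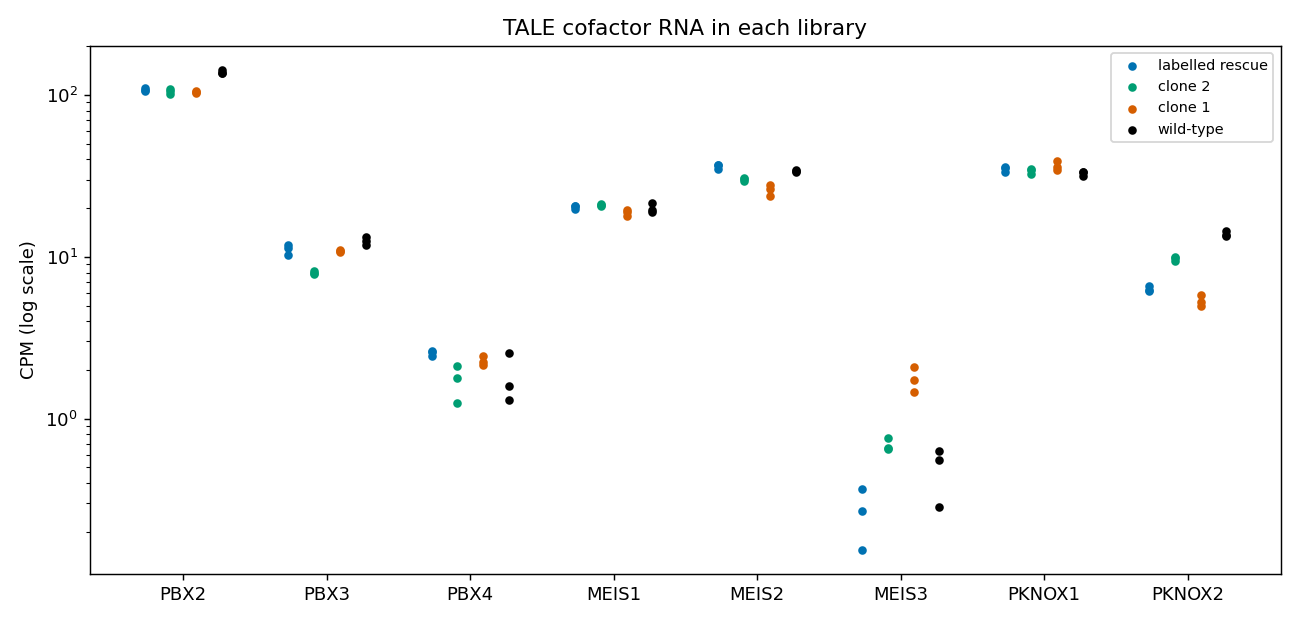
Level of 8 TALE cofactors in every library, in CPM on a log axis; each point is 1 library. PKNOX2 is lowest in clone 1, PBX3 in clone 2, and MEIS3 is highest in clone 1.

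Of 31 listed polycomb genes, 29 were tested. In clone 1, 5 were higher and 15 lower than in wild-type (median -0.12), and in clone 2, 10 were higher and 9 lower (median -0.03). The shares of all tested genes were 30.8% higher and 30.7% lower in clone 1, and 31.5% and 30.6% in clone 2. EZH2, the methyltransferase of the complex, had 57.3 ± 0.869 CPM in clone 1 against 109 ± 2.07 CPM in wild-type (-0.93, adjusted p = 4.60e-23, edgeR) and was not called in clone 2 (-0.03). EED, its partner subunit, fell in clone 2 (-1.05) and less in clone 1 (-0.31). CBX7, a reader of the polycomb mark, rose in clone 2 (1.13) and clone 1 (0.69), whereas CBX2, another reader, fell in both (-0.36 in clone 2 and -0.67 in clone 1). PCGF5 moved in opposite directions, 0.56 in clone 2 and -0.76 in clone 1. Between the libraries labelled rescue and clone 2, 7 were higher and 8 lower, against 19.3% and 19.9% of all tested genes. Of 21 trithorax, MLL and related genes, 20 were tested: in clone 1, 10 were higher and 4 lower (median 0.08), and in clone 2, 9 were higher and 9 lower (median 0.02), against the same shares of all tested genes. KMT2A, the MLL methyltransferase that keeps HOX genes active, fell in clone 2 (-0.61) and clone 1 (-0.43). MEN1, which recruits it, fell in clone 2 (-0.65) and rose in clone 1 (0.19). KAT6B, a histone acetyltransferase, rose in clone 2 (0.38) and clone 1 (0.77). Between the libraries labelled rescue and clone 2, 4 of them were higher and 6 lower, against 19.3% and 19.9% of all tested genes.

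Of 19 retinoic acid pathway genes, 14 were tested. In clone 1, 9 were higher and 4 lower (median 0.23), and in clone 2, 5 were higher and 6 lower (median -0.12), where 30.8% of all tested genes were higher and 30.7% lower in clone 1, and 31.5% and 30.6% in clone 2. STRA6, the retinol uptake receptor, had 2.49 ± 0.420 CPM in clone 2 and 28.1 ± 1.05 CPM in clone 1, against 0.681 ± 0.204 CPM in wild-type (1.86 in clone 2 and 5.34 in clone 1). CRABP2, which carries retinoic acid to the nucleus, had 1.16 ± 0.496 CPM in clone 2 and 2.86 ± 0.238 CPM in clone 1, against 0.326 ± 0.141 CPM in wild-type (1.82 and 3.07 in that order). RARB, a receptor that retinoic acid itself induces, rose in clone 1 (1.88) and fell in clone 2 (-1.01). Between the libraries labelled rescue and clone 2, 5 were higher and 6 lower, against 19.3% and 19.9% of all tested genes. Among them were CRABP2 at -1.52 and STRA6 at 1.92. Of 11 other named regulators of HOX genes, 8 were tested, of which 3 were higher and 5 lower in clone 2, and 1 higher and 6 lower in clone 1, against the same shares of all tested genes. CDX2, a caudal homeobox activator of HOX genes, had 0.390 ± 0.0361 CPM in clone 2 and 0.0804 ± 0.110 CPM in clone 1, against 1.57 ± 0.105 CPM in wild-type (-2.01 in clone 2 and -4.16 in clone 1). ZNF503 rose in clone 2 (0.95) and fell in clone 1 (-1.25). Between the libraries labelled rescue and clone 2, 3 of the 8 were higher and 5 lower, against 19.3% and 19.9% of all tested genes.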

How the data were processed

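Polyadenylated RNA of 12 libraries, 3 in each of 4 groups, was sequenced from a strand-specific kit, per the labels' protocols. The authors deposited 1 table of raw counts per gene. Per the submitters' processing notes, FastQC and STAR were used with the hg38 build; neither their versions nor the read counter and its strand setting is given in the sources used here. Of the 21569 gene identifiers, 20717 had a symbol and 20825 were in GENCODE 29, from which coordinates and exon lengths were taken.

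The members and gene lists were chosen with earlier results of these data known. Genes were filtered with edgeR's filterByExpr (minimum count 10), which left 17084. The deposited counts were scaled by TMM and tested with edgeR 4.0.16 in R 4.3.3 (quasi-likelihood test, all 12 libraries, 8 residual degrees of freedom, biological coefficient of variation 2.95%), with Benjamini-Hochberg adjustment over all tested genes and a threshold of 0.05. Intervals of 95% for log2 fold changes used the 8 residual degrees of freedom and are wider than the edgeR test implies. CPM is TMM-scaled, and RPKM divides it by merged exon length. The procedure was tested on simulated data. Genes with 0 reads in a group got a bound from 3 reads over that group, and genes with 1 to 3 reads an exact 95% interval. Both cover counting error only. The bound takes the reads of the other group as exact, so an "at least" value can be too high where those reads are few.

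Values in every library were given for tested members that were called somewhere and reached 1 CPM in a group, and ranges for the rest. TALE cofactors were named, and of each other list up to 4 called genes per comparison with the largest change and at least 1 CPM; some of these genes are not reported here. Neighbours were all tested protein-coding genes within 1 Mb of a cluster. Lists were TALE cofactors, antisense and intergenic RNAs, polycomb, trithorax, retinoic acid and other regulators, and markers of Ewing sarcoma, epithelial, fibroblast, blood, endothelial and muscle cells. Alternatives were RLE and upper quartile scaling, no filter or 1 CPM in 3 libraries, DESeq2 1.42.0, limma 3.58.1 (voom), only the groups compared, a replicate block, each library left out, and subtraction of the chromosome's median. Replicates of a group differed by more than counting noise (chi-square per degree of freedom 1.54 to 3.16), so none was treated as a duplicate.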

Additional observations from a re-analysis of the deposited data

Results flagged for a closer look

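For 19 of the 29 tested HOX genes the change against wild-type differed between both knockout clones. This was read from the direct test of clone 2 against clone 1 (edgeR, adjusted p under 0.05). Of all tested genes, 62.2% were called in this comparison, so no result about HOX genes as a set is read from the count. The log2 fold changes of clone 2 over clone 1 were 3.64 for HOXA10, 1.11 for HOXC13 and 1.19 for HOXD12. For HOXA11 the fitted value was 5.80 and for HOXA13 6.05. With 2 and 0 reads in clone 1 these depend on the fit. The counts give a ratio of 65.7 (exact 95% interval 17.8 to 548) for HOXA11 and at least 7.93-fold higher for HOXA13. HOXA13 passed the filter only on libraries of clone 2 and those labelled rescue. The others higher in clone 2 were HOXB5 at 0.86, HOXC11 at 0.74, HOXB6 at 0.66, HOXB8 at 0.47, HOXD13 at 0.47, HOXD10 at 0.41, HOXC6 at 0.40, HOXB7 at 0.24 and HOXD11 at 0.23. Those lower in clone 2 were HOXB4 at -0.63, HOXB3 at -0.60, HOXB9 at -0.44, HOXC10 at -0.35 and HOXD8 at -0.19. Each knockout group is 1 clone, so a difference between clones cannot be told apart from one between the cells they grew from.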

How the results depend on the processing

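No call among the 282 results changed direction under any alternative. With no filter on low counts, 8 members were called lower for clone 2 over wild-type, against 5 with the filter, and 2 were higher in the libraries labelled rescue than in clone 2, against 1. HOXA5 and HOXA7, which the filter removes, were 2 of the 8. Leaving out each library in turn also renewed the filter and gave 6 to 8 lower members for clone 2 over wild-type, or 5 to 7 of the 29, since HOXA7 then passed except without wild-type library 1 or 3; for the libraries labelled rescue over clone 2 it gave 1 to 2 higher and 1 to 4 lower. The other counts stayed within 1.5 times: over the left-out libraries, 4 to 5 higher and 11 to 13 lower in clone 1, 9 to 11 higher in clone 2, 11 to 13 higher and 6 to 7 lower in the libraries labelled rescue than in wild-type, and 12 to 15 higher and 4 to 6 lower in clone 2 than in clone 1. DESeq2 ended 15 calls, upper quartile scaling lost 4 and gained 7, no filter lost 4 and gained 2, and limma-voom gained 1. With the chromosome's median subtracted, 77 values counted as the same and 10 as moved. The largest of these medians in size was -0.10, for chromosome 2 in the libraries labelled rescue over clone 2. In no pair of groups did all 3 same-numbered libraries deviate together (correlation over 0.1), so the numbers were not taken to pair them; every library correlated best with its own number between the clones, at 0.0234 to 0.0506 over all tested genes and 0.0423 to 0.0897 over those of at least 1 CPM, and not between the other groups. With the replicate block, counts of members higher and lower were 5 and 12 in clone 1, 12 and 6 in clone 2, 1 and 4 between the libraries labelled rescue and clone 2, 13 and 6 between them and wild-type, and 14 and 5 between the clones. Of 67 results never called, 26 changed sign under some alternative. Depth limits HOXA5, HOXA7, HOXA9, HOXA13 and HOXC4, which had at most 41 reads in a group.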

Other observations

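Genes beside the other clusters were also read. EVX2, the homeobox gene next to HOXD13, had 7.13 ± 0.628 CPM in clone 2 and 2.84 ± 0.467 CPM in clone 1, against 6.14 ± 0.432 CPM in wild-type. It fell in clone 1 (log2 fold change -1.11, SE 0.13, adjusted p = 6.70e-10, edgeR), as HOXD13 did, and was not called in clone 2 (0.20). Of the 5 tested neighbours of the HOXD cluster, 4 were lower in each clone and 0 higher, against 30.6% of all tested genes lower in clone 2 and 30.7% in clone 1. PRAC1, a small gene between HOXB9 and HOXB13, had 36.3 ± 1.77 CPM in clone 2 against 31.4 ± 1.01 CPM in wild-type (0.20), and was higher again in the libraries labelled rescue than in clone 2 (0.21), while HOXB9 and HOXB13 on its sides were lower there. TTLL6, a tubulin ligase gene beyond HOXB13, rose in both clones, to 1.93 ± 0.278 CPM in clone 2 and 1.92 ± 0.0737 CPM in clone 1, against 0.859 ± 0.260 CPM in wild-type (1.15 and 1.15 in that order). Of the 32 tested neighbours of the HOXB cluster, 13 were higher and 8 lower in clone 2, and 14 higher and 9 lower in clone 1. Of the 34 of the HOXC cluster, 11 were higher and 12 lower in clone 2, and 15 higher and 13 lower in clone 1. Of all tested genes, 31.5% were higher and 30.6% lower in clone 2, and 30.8% and 30.7% in clone 1. EVX2, PRAC1 and TTLL6 were picked out after their values were seen.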
